A study of Mus musculus with 25 samples.

Results

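Resting RAW264.7 cells, a mouse macrophage cell line, were compared with resting bone marrow-derived macrophages (BMDMs), the primary cells for which the line often stands in. The sample labels gave the members: 2 libraries of control RAW264.7 cells and 3 libraries of control BMDMs, 5 of the 25 samples of the series. The RAW264.7 cells were grown in RPMI medium with serum and antibiotics and cultured for 4 h without a stimulus. The line was established from a BALB/c mouse infected with Abelson leukemia virus and grows without added growth factor. The control BMDMs came from C57BL/6 marrow, were grown in DMEM with serum and glutamine, and were matured over 4 days in medium holding M-CSF at 25 ng/ml, the growth factor that drives marrow precursors to become macrophages. They too carried the label of a 4 h culture without a stimulus. Mouse strain, medium, M-CSF, and the difference between a line and primary cells all changed together between the groups, and their effects cannot be told apart.

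Macrophages are phagocytes that take up particles and dead cells, digest them in lysosomes, and sense microbes through surface and internal receptors. Their identity is set by a small set of transcription factors, with PU.1 and the C/EBP family among the best known, and by signalling through the M-CSF receptor. A transformed line divides continuously. How many of the BMDMs were dividing was not measured.

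RNA was depleted of ribosomal RNA and sequenced by strand, and the values used are read counts on the sense strand of each gene. After removal of the ribosomal precursor Rn45s, which took 34.9% to 38.1% of the BMDM counts and 20.1% to 25.3% of the RAW264.7 counts, 1678252 to 1717984 counts per BMDM library and 2136198 to 2178702 per RAW264.7 library were left. Levels are given in CPM, the usual scaling of counts to a fixed library total, with the library totals adjusted by the TMM method, and are not divided by gene length. Libraries of the same group were close, with a correlation of log2 CPM across genes of 0.976 to 0.987, against 0.533 to 0.552 between groups. In bulk RNA, fewer cells that express a gene and less RNA per cell cannot be told apart. The 20 genes of highest count in each library took 33.6% to 35.2% of the BMDM counts and 22.9% to 24.8% of the RAW264.7 counts. Both RAW264.7 libraries come from 1 line, so the spread between them does not cover other stocks of it.

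Both groups carried macrophage markers, and the RAW264.7 libraries held almost none of the stromal ones found in BMDMs. All 16 macrophage markers of the list were tested, and all but Mertk had counts in the line. Of the 16, 11 were lower in RAW264.7 (25.2% of all tested genes were), 3 were higher (23.4%) and 2 were not called by the criteria given below, and the summed level of the list was 11410 to 11650 CPM in RAW264.7 and 30880 to 33020 CPM in BMDMs. Adgre1, which encodes F4/80, the surface antigen most used to mark mouse macrophages, had 86.9 and 92.2 CPM in RAW264.7 and 1233, 1184 and 1040 CPM in BMDMs. Of 13 fibroblast and endothelial markers, 9 had no count in either RAW264.7 library, and the list summed to 1.27 to 2.44 CPM in RAW264.7 against 332 to 391 CPM in BMDMs. All 7 tested members were called lower in RAW264.7 (25.2% of all tested genes were). In BMDMs, Acta2 had 80.8, 95.8 and 93.8 CPM and Sparc had 57.9, 78.99 and 79.2 CPM. Col1a2 had 81, 71 and 101 counts, and the endothelial Kdr had 51, 48 and 59 counts. Vwf, also endothelial, had 195 counts over the BMDM libraries. Pdgfra and Pecam1 had at most 1 count in any BMDM library. B lineage markers summed to 0 to 0.41 CPM in RAW264.7 and 27.2 to 36.3 CPM in BMDMs. Most of this came from Cd22, a receptor also known outside B cells, with no count in the line and 54, 35 and 54 counts in BMDMs, whereas Ms4a1 and Pax5 had no count in any of the 5 libraries. Neutrophil markers summed to 1.27 to 4.47 CPM in RAW264.7 and 181 to 226 CPM in BMDMs, most of it from Csf3r, and Mpo had no count in any library. The part of other cells in the BMDM values was not tested. Xist, the noncoding RNA of the inactive X chromosome, had 309, 333 and 315 CPM in the BMDM libraries and no count in RAW264.7. The Y-linked Ddx3y was present in both, at 61.05, 65.4 and 67.7 CPM in BMDMs and 93.4 and 59.04 CPM in RAW264.7. What part sex has in the differences between the groups was not tested.

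Of 24410 genes, 9879 passed the filter on low counts and were tested with edgeR's quasi-likelihood test. With a Benjamini-Hochberg adjusted p no greater than 0.01 and a change of 1 or more on the log2 scale in either direction, 2313 genes (23.4% of those tested) were higher in RAW264.7 and 2488 (25.2%) were lower, 4801 (48.6%) in all. These 2 criteria define a call throughout, and counts for gene lists are to be read against these shares of all tested genes. With no requirement on the fold, 6960 genes (70.5%) passed the adjusted p, and with a log2 change of 2 or more, 2216 genes (22.4%) were called. The CPM of the 2 groups did not overlap for 8120 genes (82.2%), among them 4795 of the called genes. The median absolute log2 fold change over all tested genes was 0.97 and the signed median was -0.04. Called genes split into 48.2% higher and 51.8% lower, and without the TMM factors, which moved the median of all genes to 0.23, the split was 58.8% and 41.2%.

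**Figure D1:**
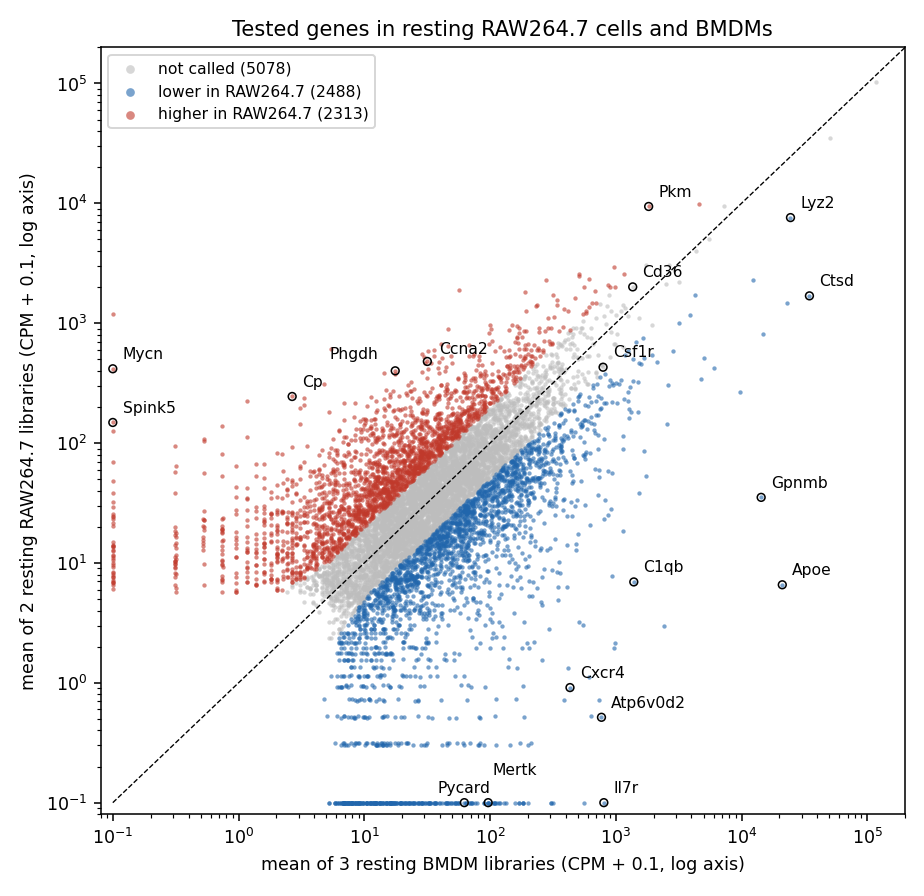
Mean level of each of the 9879 tested genes in 3 resting BMDM libraries (horizontal axis) and 2 resting RAW264.7 libraries (vertical axis), in CPM plus 0.1 on log axes; red points were called higher in RAW264.7 (2313), blue points lower (2488), grey points were not called (5078), and the dashed line marks equal levels. Genes with no count in one group lie on the lower or left edge, where Il7r, Mertk and Pycard (no count in RAW264.7) and Mycn and Spink5 (no count in BMDMs) are circled.

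For scale, 1 fit over all 25 samples called 5040 of 10612 genes (47.5%) between resting RAW264.7 cells and resting BMDMs. In the same fit, 4 h of LPS after IFN-γ priming called 3403 genes (32.1%) against resting BMDMs, and 4 h of LPS called 993 genes (9.36%) in RAW264.7. The median absolute log2 fold changes of the 3 contrasts were 1, 0.71 and 0.33. The contrasts share control libraries and have 2 or 3 libraries per group, and the difference between their counts was not tested.

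Receptors for the colony-stimulating factors, which govern macrophage survival and growth, were lower in the line except Csf1r, which did not reach the limit on the fold. Csf1r, the M-CSF receptor, had 405 and 453 CPM in the RAW264.7 libraries and 873, 717 and 787 CPM in the BMDM libraries. The groups did not overlap, and the log2 fold change of -0.89 (SE 0.072) passed the adjusted p (1.55e-33, edgeR) but not the limit on the fold. Csf2rb2, a β chain of the IL-3 receptor, had 9.74 and 15.7 CPM in RAW264.7 and 474, 468 and 494 CPM in BMDMs, a log2 fold change of -5.23 (SE 0.14). Csf1, the gene of M-CSF itself, had 2 and 0 counts in the RAW264.7 libraries and 66, 77 and 108 in the BMDM libraries, a ratio of BMDM to RAW264.7 of 129 (95% counting interval 35.4 to 1070). Of 10 genes of the colony-stimulating factor axis, 7 were tested, and 6 were called lower (25.2% of all tested genes were) and none higher (23.4%). The list median was -5.23 against -0.04 for all tested genes, and -4.665 with genes of no count in a group set at their bound.

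Transcription factors that define macrophages were mostly lower in the line. Of 26 listed factors, 23 were tested and 17 were called lower in RAW264.7 (25.2% of all tested genes were). None was called higher (23.4%), and the median log2 fold change was -2.67. Spi1, which encodes PU.1, had 161 and 196 CPM in RAW264.7 and 289, 312 and 310 CPM in BMDMs. This difference, -0.77 (SE 0.090) on the log2 scale, was within the limit on the fold. Cebpa, needed to form myeloid cells, had 51.2 and 45.02 CPM in the line and 499, 510 and 587 CPM in BMDMs (log2 fold change -3.46 (SE 0.10), adjusted p = 1.41e-234, edgeR). Id3, an inhibitor of helix-loop-helix factors that is found in Kupffer cells, averaged 1.86 against 204 CPM and Id2 averaged 8.25 against 343 CPM. The lipid-sensing nuclear receptors went with them. Pparg had no count in either RAW264.7 library and 40.1, 47.9 and 37.03 CPM in BMDMs, at least 66.9-fold lower when the limit of 3 counts over the group is used for the line. Nr1h3, the oxysterol receptor LXRα, had 6.09 and 7.64 CPM against 88.4, 91.9 and 88.7 CPM, and its partner Rxra had 11.8 and 18.7 CPM against 226, 196 and 257 CPM. Irf5 (137 against 207 CPM), Cebpd (17.7 against 23.1 CPM), Tfec (9.54 against 9.39 CPM), Etv5 (24.3 against 24.8 CPM) and Nfatc1 (23.4 against 39.7 CPM) were the other factors that were not called, and Nfatc1 was called lower (log2 fold change -1.11) without the second RAW264.7 library.

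Genes of the lysosome, where macrophages digest what they take up, were lower in the line and included the 3 genes of highest CPM in BMDMs among all genes called lower. Of 25 lysosomal hydrolases and lysozymes, all tested, 20 were called lower (25.2% of all tested genes were), 1 higher (23.4%) and 4 not called. The protease cathepsin D (Ctsd) had 1684 and 1696 CPM in RAW264.7 and 34260, 33910 and 35910 CPM in BMDMs, a log2 fold change of -4.36 (SE 0.071). Cathepsin B (Ctsb) differed by -3.97 (SE 0.070), and prosaposin (Psap), the precursor of the saposins that help break down sphingolipids, by -4.19 (SE 0.072). For Ctsd, Ctsb and Psap, every BMDM library was more than 10 times above every RAW264.7 library. Gpnmb, a lysosome-associated glycoprotein, showed 32.9 and 37.4 CPM in RAW264.7 and 15750, 15100 and 12130 CPM in BMDMs, a 408-fold difference. Cathepsin S (Ctss), which trims the MHC class II invariant chain, was 36.1-fold lower at 268 against 9694 CPM, and cathepsin H (Ctsh) had 4 and 1 counts in the 2 RAW264.7 libraries against 627, 590 and 629 CPM in BMDMs. Lysozyme (Lyz2), a classical macrophage product, had 7553 and 7649 CPM in the line, 3.23-fold below the BMDMs. Cathepsin F (Ctsf) was the member called higher (36.3 against 10.2 CPM).

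Lipid handling followed, led by a gene that was among the highest of all in BMDMs and close to absent in the line. Apoe, the apolipoprotein that carries cholesterol out of macrophages (mm10 chr7:19696109-19699188, minus strand), had 4.87 and 8.07 CPM in RAW264.7 and 21050, 19290 and 22960 CPM in BMDMs. The lowest BMDM library was above the higher RAW264.7 library by more than 3 orders of magnitude, and the log2 fold change was -11.66 (SE 0.12). Abca1, a cholesterol exporter, had 2 and 1 counts in RAW264.7 and 617, 536 and 661 in BMDMs, a ratio of 622 (95% counting interval 212 to 3020). Its partner Abcg1 differed by -5.39 (SE 0.23), and the phospholipid transfer protein Pltp by -5.28 (SE 0.17). Fabp4, a fatty acid carrier, had a total of 1 count in the line and 207, 199 and 230 CPM in BMDMs. Of 19 tested genes of lipid handling and efflux, 12 were called lower (25.2% of all tested genes were) and 2 higher (23.4%). The 2 higher ones, Fasn (171 against 79.2 CPM) and Scd1 (29.6 against 8.53 CPM), make fatty acids. The fatty acid receptor Cd36 had 2112 and 1904 CPM in RAW264.7 and 1386, 1410 and 1297 CPM in BMDMs and was not called (log2 fold change 0.56 (SE 0.062)).

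**Figure D2:**
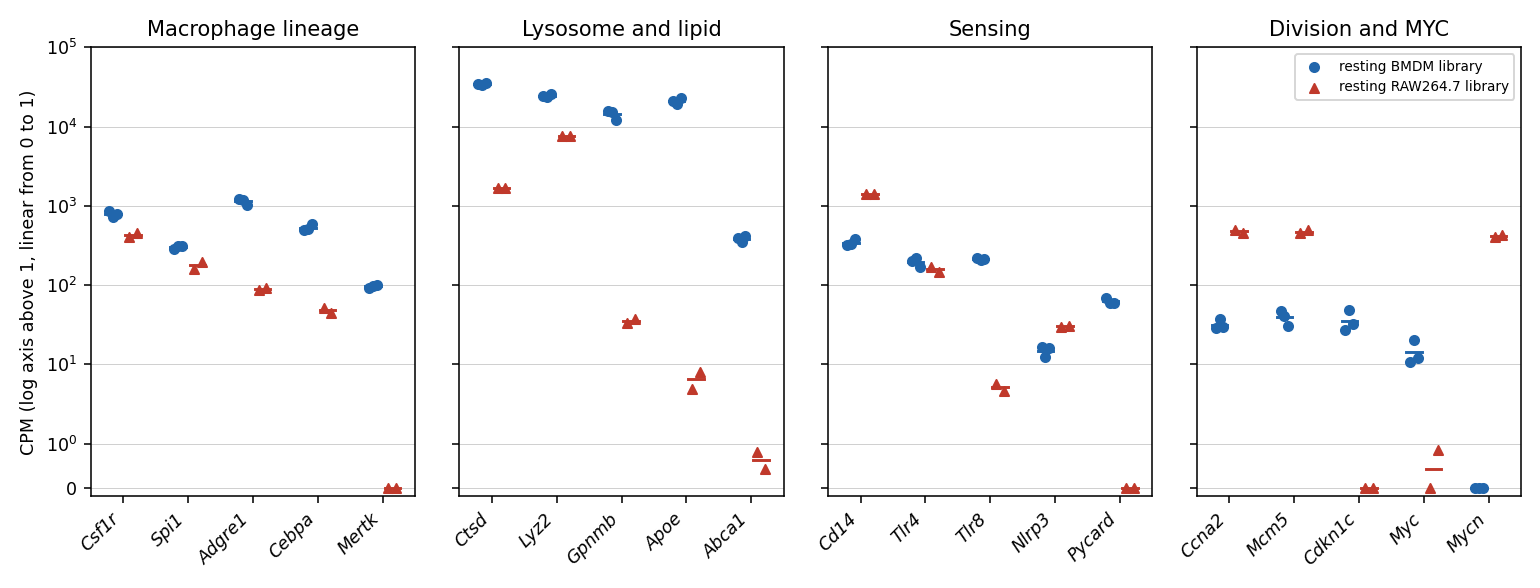
CPM of 20 genes in each of the 3 resting BMDM libraries (blue circles) and 2 resting RAW264.7 libraries (red triangles), on an axis that is logarithmic above 1 and linear from 0 to 1, with short lines at the group means. Tlr4 is close in both groups, Csf1r and Spi1 differ by less than a factor of 2, Apoe is more than 3 orders of magnitude lower in RAW264.7, and Mertk, Pycard and Cdkn1c (no count in RAW264.7) and Mycn (no count in BMDMs) lie at 0 in one group.

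Genes for the uptake of dead cells and particles were mostly lower in RAW264.7. Mertk, a receptor kinase for apoptotic cells (mm10 chr2:128698956-128802894, plus strand), had no count in the line and 91.6, 96.5 and 102 CPM in BMDMs, at least 155-fold lower. The related kinase Axl had a total of 1 count in RAW264.7 against 153, 170 and 199 CPM. Gas6, the ligand of both, had 7.31 and 5.097 CPM in the line and 415, 415 and 406 CPM in BMDMs, and Mfge8, a bridge to phosphatidylserine, averaged 38.1 against 1527 CPM. Of 18 tested scavenger and efferocytosis receptors with their ligands, 13 were lower (25.2% of all tested genes were) and 2 higher (23.4%). Colec12, a scavenger receptor with a collectin domain, was one of the higher ones at 503 and 480 CPM in RAW264.7 and 83.3, 78.99 and 83.6 CPM in BMDMs (log2 fold change 2.58 (SE 0.094), adjusted p = 7.58e-161, edgeR). Trem2, a lipid receptor, was detected in both groups (296 against 1294 CPM) and called lower.

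The complement C1q subunits, which opsonise debris and mark mature macrophages, had some of the largest folds in this direction among genes that reached 10 counts in all 5 libraries. C1qb had 7.31 and 6.37 CPM in RAW264.7 and 1419, 1340 and 1415 CPM in BMDMs, and C1qc had 8.12 and 7.22 CPM against 1005, 879 and 891 CPM. Their log2 fold changes were -7.65 (SE 0.13) and -6.90 (SE 0.13), and the groups were far apart in every library. The anaphylatoxin receptor C3ar1 was 19.5-fold lower. Properdin (Cfp, 189 against 67.2 CPM), which stabilises the alternative convertase, was higher. Of 11 tested complement genes, 8 were lower (25.2% of all tested genes were) and 2 higher (23.4%). Of 8 tested Fc receptor genes, 6 were lower and 2 higher, the latter a share near that of all genes. Fcgr3, the low-affinity IgG receptor, was lower at 60.3 against 686 CPM. Fcgr1, the high-affinity IgG receptor, was higher at 187 and 187 CPM in the line and 62.3, 65.4 and 67.7 CPM in BMDMs. The inhibitory receptor Pirb, which binds MHC class I, had 4.47 and 5.097 CPM against 350, 326 and 364 CPM, and its near-identical relatives make its counts uncertain.

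Adhesion and matrix genes differed as strongly. Of 14 tested integrins, 11 were lower (25.2% of all tested genes were) and 3 higher (23.4%), the latter a share near that of all genes. Itgal, the α chain of LFA-1, averaged 2.08 against 225 CPM, and Itgax, known as CD11c, had 1 and 3 counts in the line and 192, 198 and 158 CPM in BMDMs. In the opposite direction, Itga4, the α chain of VLA-4, had 1463 and 1304 CPM in RAW264.7 and 207, 254 and 239 CPM in BMDMs, a 5.92-fold difference. Of 19 tested metalloproteinases, inhibitors and plasminogen activators, 14 were lower (25.2% of all tested genes were) and none higher (23.4%). Mmp12, the macrophage elastase, had 2 and 1 counts in the line and 754, 828 and 613 CPM in BMDMs, a ratio of 1174 (95% counting interval 401 to 5700). Timp2, an inhibitor of these proteases, was 184-fold lower at 2.94 against 546 CPM (log2 fold change -7.52, and -8.33 without the second RAW264.7 library), and Timp3 and Mmp2 had no sense count in RAW264.7. With reads of both strands counted, the log2 fold change of Mmp2 was -5.94. The shedding proteases Adam10 (216 against 268 CPM) and Adam17 (108 against 114 CPM) were not called. The stromal markers given above were at most 2.44 CPM in sum in RAW264.7 as well, and their part in the matrix genes was not tested.

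Sensors of microbes were called in both directions. Of 23 tested Toll-like receptors and adaptors, 9 were lower, 3 higher and 11 not called. Over all tested genes, 25.2% were lower and 23.4% higher, 48.6% in all. The share of sensors called in either direction together was near that of all genes. The median log2 fold change of the list was -0.86, with 18 members below 0 and 5 above. Tlr4, the LPS receptor, had 170 and 145 CPM in RAW264.7 and 199, 217 and 172 CPM in BMDMs, values -0.31 (SE 0.097) apart on the log2 scale and not called. Its co-receptor Cd14 was higher in the line, at 1419 and 1418 CPM against 319, 329 and 378 CPM (log2 fold change 2.05 (SE 0.070), adjusted p = 1.70e-186, edgeR). Tlr2, for bacterial lipoproteins, was also higher (329 against 106 CPM). Tlr8, an endosomal RNA sensor, was 40.7-fold lower with 5.68 and 4.67 CPM in RAW264.7 and 217, 210 and 214 CPM in BMDMs, and Tlr13, a sensor of bacterial ribosomal RNA, was 6.71-fold lower at 191 against 1283 CPM. Myd88 (68.6 against 54.8 CPM) and Ticam2 (38.2 against 43.8 CPM), adaptors of the pathway, and Tlr7 (305 against 335 CPM) were not called.

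The inflammasome adaptor had no sense count in the line, while several of its partners did. Pycard, which encodes ASC and links inflammasome sensors to caspase-1 (mm10 chr7:127989708-127993867, minus strand), had no count in either RAW264.7 library and 107, 93 and 92 counts in the BMDM libraries, 68.05, 60.2 and 58.7 CPM. Against the limit of 3 counts over both libraries, it was at least 100-fold lower. With reads of both strands counted, the log2 fold change was -5.03, a smaller difference than this bound. The sensor Nlrp3 had 30.1 and 30.2 CPM in RAW264.7 and 16.5, 12.3 and 15.96 CPM in BMDMs and was called higher (log2 fold change 1.01 (SE 0.22), adjusted p = 9.53e-06, edgeR). It lay at the limit on the fold and was not called without the second BMDM library (0.89) or with Rn45s kept. Caspase-1 (Casp1) had 57.2 and 43.3 CPM against 65.5, 68.6 and 56.2 CPM and gasdermin D (Gsdmd), the pore protein, 81.2 and 88.8 CPM against 76.95, 77.05 and 73.4 CPM, and neither was called. Of 16 tested inflammasome genes, 8 were lower (25.2% of all tested genes were) and 2 higher (23.4%), and without the TMM factors 5 were lower. Among the lower ones, the Naip genes have near-identical copies, so their counts are uncertain.

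Interferon-stimulated genes differed in both directions at rest. Of 40 listed genes, 30 were tested, with 13 higher in RAW264.7, 8 lower and 9 not called (median log2 fold change 0.60), and without the TMM factors 5 were lower. Over all tested genes, 23.4% were higher and 25.2% lower, so the share of lower members was near that of all genes. Oas2, an RNA sensor that makes 2'-5' oligoadenylates, had 45.9 and 54.4 CPM in the line and 5.72, 5.18 and 3.83 CPM in BMDMs, and Ifi27l2a had 43.9 and 46.3 CPM against 3.18, 3.88 and 1.28 CPM. Oasl1, a brake on Irf7 translation, had no count in BMDMs and 23.96 and 24.2 CPM in RAW264.7, at least 37.6-fold higher. Irf7 itself, the master factor of type I interferon, was higher at 26.6 against 7.26 CPM, and Usp18, which limits interferon signalling, had 22.7 and 22.1 CPM in the line and 1.27, 2.59 and 0.638 CPM in BMDMs. Others went the opposite way, among them Slfn5 (18.3 against 115 CPM) and Parp14 (44.8 against 107 CPM). The receptor subunits Ifnar1 (105 against 225 CPM) and Ifngr1 (48.7 against 210 CPM) were called lower. Without the TMM factors, Ifnar1 (-0.83) and Parp14 (-0.98) did not reach the limit on the fold. Of 13 tested cytosolic nucleic acid sensors and their regulators, 5 were higher (23.4% of all tested genes were) and 2 lower (25.2%). Mb21d1, the DNA sensor cGAS, was one of the higher ones at 19.9 and 22.1 CPM in RAW264.7 and 0.636, 1.94 and 4.47 CPM in BMDMs, whereas its partner Tmem173 (STING) was not called at 53.8 against 43.1 CPM.

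Of 7 tested genes of MHC class II presentation, 5 were lower (25.2% of all tested genes were) and 2 higher (23.4%). H2-Aa had no count in RAW264.7 and 22.3, 20.7 and 20.4 CPM in BMDMs, and H2-Ab1 had none against 13.99, 14.2 and 20.4 CPM, at least 33.9-fold and 26.0-fold lower. The 2 higher ones were Ifi30, a thiol reductase of the lysosome (247 against 83.5 CPM), and the invariant chain Cd74, with 357 and 338 CPM in the line and 55.3, 56.3 and 53.6 CPM in BMDMs (log2 fold change 2.66 (SE 0.11), adjusted p = 1.64e-134, edgeR). Among 14 tested MHC class I genes, 10 were not called, including H2-K1 (444 against 767 CPM) and B2m (628 against 1137 CPM). The H2 genes differ in sequence between BALB/c and C57BL/6, the mm10 genome is C57BL/6, and the effect of this on the counts was not tested. The costimulatory Cd86 (25.5 against 9.59 CPM) was higher, and the checkpoint ligand Cd274, known as PD-L1, was 21.4-fold lower at 4.37 against 94.8 CPM.

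Of 24 listed chemokines, 7 had enough counts at rest to be tested. Of these, 2 were higher in the line (23.4% of all tested genes were) and 3 lower (25.2%). Ccl9 had 807 and 843 CPM in RAW264.7 and 101, 114 and 81.1 CPM in BMDMs, and the monocyte attractant Ccl2 had 94.6 and 71.4 CPM against 4.45, 5.18 and 8.299 CPM. These were the 2 higher ones, by 8.36-fold and 13.8-fold. Cxcr4, the receptor for CXCL12, had 4 and 0 counts in the line and 413, 416 and 468 CPM in BMDMs, one of 6 lower genes among 8 tested chemokine receptors. Cx3cr1, the fractalkine receptor, was one of the 2 higher ones (144 against 51.1 CPM). Tnf was called higher at 67.0 and 85.4 CPM in RAW264.7 and 33.7, 33.02 and 33.8 CPM in BMDMs. Among cytokine receptors, Tgfbr1 (36.5 against 718 CPM), Tnfrsf1b (20.6 against 628 CPM) and Il4ra (20.2 against 128 CPM) were lower, and Tgfbr2 (134 against 136 CPM) was not called. In all, 9 of 20 tested cytokine and receptor genes were lower (25.2% of all tested genes) and 4 higher (23.4%), the latter a share near that of all genes.

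C-type lectins, receptors for sugars of microbes and dying cells, and the oxidase that makes superoxide also split. Of 13 tested lectins, 8 were lower (25.2% of all tested genes were) and 4 higher (23.4%). Clec7a, the β-glucan receptor dectin-1, had 48.7 and 55.2 CPM in RAW264.7 and 754, 720 and 739 CPM in BMDMs (log2 fold change -3.83 (SE 0.099)). Clec4e, the glycolipid receptor Mincle, had 166 and 153 CPM in the line and 11.4, 9.06 and 15.3 CPM in BMDMs and was 13.3-fold higher, although Clec4d, its close relative, was lower (209 against 565 CPM). The membrane subunits of the oxidase, Cybb (538 against 1944 CPM) and Cyba (92.1 against 338 CPM), were lower, the cytosolic Ncf1 (92.8 against 105 CPM) and Ncf4 (99.2 against 55.1 CPM) were not called, and the GTPase Rac2 (618 against 242 CPM) was higher. Without the TMM factors Ncf4 was called higher (1.12). The arginine carrier Slc7a2 had no count in RAW264.7 and 16.5, 18.8 and 22.3 CPM in BMDMs, while Slc7a1, the common carrier, was higher at 132 against 21.2 CPM. Nos2 and Arg1, the enzymes that mark classical and alternative activation, had too few counts to be tested.

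Genes outside these lists, named for the size of their difference or their level, were of several kinds. Among genes that reached 10 counts in all 5 libraries, Igf1, the insulin-like growth factor, had 17.5 and 19.1 CPM in RAW264.7 and 1107, 1127 and 1180 CPM in BMDMs, a 62.1-fold difference. The surface peptidase Anpep (CD13) averaged 6.21 against 345 CPM. Gas7, linked to cell shape, was higher at 868 and 930 CPM in the line and 46.4, 39.5 and 53.6 CPM in BMDMs, and the chromatin protein Hmgb2 averaged 558 against 28.6 CPM. Among the called genes of highest level, the pore protein Mpeg1 (419 against 6016 CPM) and galectin-3 (Lgals3, 514 against 5027 CPM) were lower. Prothymosin α (Ptma, 2577 against 506 CPM), Tubb5, a β-tubulin (2336 against 617 CPM), and the translation factor Eif4g2 (2577 against 1173 CPM) were higher.

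Genes of cell division were higher in the line almost throughout. All 27 tested genes of mitosis and 26 of 28 of DNA replication were higher in RAW264.7, against 23.4% of all tested genes, with median log2 fold changes of 3.50 and 3.08. Ccna2, the cyclin of S phase and mitotic entry, had 498 and 461 CPM in the line and 28.6, 36.9 and 29.4 CPM in BMDMs (log2 fold change 3.92 (SE 0.11), adjusted p = 6.88e-259, edgeR). Mcm5, a subunit of the replicative helicase, had 449 and 494 CPM against 47.1, 40.8 and 30.6 CPM, and the spindle motor Kif11 had 251 and 242 CPM against 30.5, 29.8 and 33.2 CPM. In each case the lower RAW264.7 library lay above every BMDM library. BMDMs held counts of these genes too, where Mki67 had 37.5, 37.5 and 34.5 CPM and Top2a 25.4, 23.3 and 22.98 CPM. The 2 replication genes not called were Pcna (353 against 274 CPM) and the licensing factor Cdt1 (17.7 against 26.5 CPM).

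The promoters of these division genes are shown because almost all of the genes were higher in RAW264.7 and known regulators of such genes bind short motifs. E2F factors control genes of DNA replication through sites such as TTTGGCGC or TTTCGCGC, and the DREAM and MuvB complexes control late cell cycle genes through the element TTTGAA. RefSeq promoter windows of 300 bases (GRCm38.p6, 250 bases before and 50 after the start, both strands searched, overlapping matches allowed) were found for 23 of the 28 replication genes and 23 of the 27 mitosis genes. TTTGGCGC or TTTCGCGC was in 8 of the 23 replication promoters (34.8%), in 1 of the 23 mitosis promoters (4.35%), in 1.96% of the promoters of all tested genes, in 3.39% of those of all genes called higher and in 0.84% of all 27025 promoters. The 8 replication promoters include that of Cdt1, which was not called. TTTGAA was in 17 of the 23 mitosis promoters (73.9%), in 3 of the replication promoters (13%), in 12% of those of tested genes, in 18% of those of genes called higher and in 18.2% of all promoters. A match says only that the letters are present. For each list, the 3 genes with the highest CPM in RAW264.7 among those called higher with a match before the start are printed from 250 bases upstream to the base before the start, 5′ to 3′ on the gene's strand, with the motif of that list, or its reverse complement, in capitals. The replication promoters are those of Mcm5 (chr8:75109259-75109508, plus strand), Mcm6 (chr1:128359706-128359955, minus strand), another helicase subunit, and Rfc3 (chr5:151651209-151651458, minus strand), a subunit of the clamp loader.
Mcm5: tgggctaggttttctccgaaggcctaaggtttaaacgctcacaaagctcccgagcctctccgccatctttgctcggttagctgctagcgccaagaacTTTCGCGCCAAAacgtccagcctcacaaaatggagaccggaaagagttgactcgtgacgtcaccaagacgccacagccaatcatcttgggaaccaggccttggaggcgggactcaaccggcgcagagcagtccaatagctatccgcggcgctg
Mcm6: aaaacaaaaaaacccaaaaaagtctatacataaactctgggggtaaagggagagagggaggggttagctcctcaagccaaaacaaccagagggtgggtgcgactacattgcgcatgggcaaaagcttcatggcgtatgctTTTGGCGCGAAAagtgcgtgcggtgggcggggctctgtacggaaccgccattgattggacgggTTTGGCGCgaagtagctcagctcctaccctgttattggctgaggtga
Rfc3: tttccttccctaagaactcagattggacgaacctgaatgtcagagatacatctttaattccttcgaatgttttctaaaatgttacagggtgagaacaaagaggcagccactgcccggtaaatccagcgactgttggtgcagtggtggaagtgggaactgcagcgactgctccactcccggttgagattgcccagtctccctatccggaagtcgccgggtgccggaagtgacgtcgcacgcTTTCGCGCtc
The mitosis promoters are those of Kif11 (chr19:37376132-37376381, plus strand), Top2a (chr11:99024190-99024439, minus strand), a topoisomerase that untangles sister chromosomes, and Cdk1 (chr10:69352913-69353162, minus strand), the kinase of mitotic entry.
Kif11: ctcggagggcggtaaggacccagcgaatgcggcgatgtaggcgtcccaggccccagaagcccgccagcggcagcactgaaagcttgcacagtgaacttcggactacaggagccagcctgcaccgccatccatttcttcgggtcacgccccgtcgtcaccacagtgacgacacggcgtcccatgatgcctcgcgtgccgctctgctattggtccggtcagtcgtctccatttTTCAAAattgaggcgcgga
Top2a: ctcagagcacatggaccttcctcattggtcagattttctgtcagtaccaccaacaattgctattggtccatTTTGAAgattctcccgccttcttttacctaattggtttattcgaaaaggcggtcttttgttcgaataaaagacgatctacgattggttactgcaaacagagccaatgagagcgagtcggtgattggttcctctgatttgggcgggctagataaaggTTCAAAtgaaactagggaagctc
Cdk1: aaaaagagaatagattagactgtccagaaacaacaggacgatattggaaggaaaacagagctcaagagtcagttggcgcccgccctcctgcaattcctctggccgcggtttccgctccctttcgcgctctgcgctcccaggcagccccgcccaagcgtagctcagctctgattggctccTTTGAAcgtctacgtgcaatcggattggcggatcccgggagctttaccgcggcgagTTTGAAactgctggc
In these 3 mitosis promoters, the match nearest the start begins 19 bases (Kif11), 23 bases (Top2a) and 15 bases (Cdk1) before it. Mcm6 had 298 and 313 CPM in RAW264.7 and 76.95, 58.9 and 70.9 CPM in BMDMs, Rfc3 60.3 against 14.1 CPM, and Cdk1 222 against 27.8 CPM.

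Regulators of the cycle and growth differed in both directions. Of 25 tested cyclins, CDK inhibitors and p53 axis genes, 11 were higher (23.4% of all tested genes were) and 7 lower (25.2%), so the lower share was near that of all genes. The G1 cyclin Ccnd1 (249 against 38.02 CPM) and its kinase Cdk4 (518 against 135 CPM) were higher, as were Trp53 (238 against 64.5 CPM) and its target Cdkn1a (98.7 against 30.5 CPM). The inhibitor Cdkn1c had no count in RAW264.7 and 27.4, 47.9 and 31.9 CPM in BMDMs, at least 57.4-fold lower, and Rb1, the retinoblastoma gene, was 4.12-fold lower at 10.8 against 44.7 CPM. Members of the MYC family went opposite ways. Mycn (mm10 chr12:12936093-12941914, minus strand) had 1002 and 1003 counts in the RAW264.7 libraries, 407 and 426 CPM, and none in any of the 3 BMDM libraries, at least 650-fold higher. Myc had 0 and 2 counts in RAW264.7 and 17, 31 and 19 in BMDMs, a ratio of BMDM to RAW264.7 of 34.5 (95% counting interval 9.17 to 290). Abl1, the cellular gene related to the oncogene of the Abelson virus, had 36.5 and 39.5 CPM in the line and 103, 107 and 102 CPM in BMDMs (log2 fold change -1.45 (SE 0.14)). Whether counts on Abl1 include reads from the virus was not tested. Of 19 tested oncogenes and survival genes, 8 were lower (25.2% of all tested genes were) and 4 higher (23.4%), the latter near the share of all genes. Bcl2l11, the death-promoting protein BIM, was 9.61-fold lower at 16.02 against 154 CPM, and Mcl1 (543 against 726 CPM) was not called.

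Of 24 tested genes of glycolysis and lactate, 14 were higher in RAW264.7 (23.4% of all tested genes were) and 3 lower (25.2%). Pkm, pyruvate kinase, had 9237 and 9587 CPM in the line and 1901, 1786 and 1790 CPM in BMDMs, and Ldha, lactate dehydrogenase A, had 2443 and 2514 CPM against 525, 502 and 495 CPM. No library of the groups overlapped, and the folds were 5.16 and 4.89. Ldhb, the other common subunit of that enzyme, had no count in RAW264.7 and 36.2, 33.7 and 42.1 CPM in BMDMs, at least 60.0-fold lower. The lactate carriers Slc16a1 (524 against 29.9 CPM) and Slc16a3 (275 against 45.7 CPM) were higher, and the hexokinase Hk3 (41.7 against 332 CPM) was lower. Serine and one-carbon metabolism feeds nucleotide synthesis, and its genes were listed together with those of the amino acid response. Of 20 tested genes of this joint list, 11 were higher (23.4% of all tested genes were) and 1 lower (25.2%). Phgdh, which commits glucose carbon to serine, was 22.8-fold higher with 385 and 415 CPM in RAW264.7 and 13.99, 18.8 and 19.8 CPM in BMDMs, and Psat1, the next enzyme, had 466 against 30.1 CPM. Ddit3, a stress factor, was the gene called lower (7.26 against 19.2 CPM). Of 20 tested genes of cholesterol synthesis, 9 were higher (23.4% of all tested genes were), none lower (25.2%) and 11 not called. Fdps (272 against 75.1 CPM) and Sqle (305 against 92.5 CPM) were higher, and Srebf2 (106 against 89.5 CPM), the factor that induces the pathway, was not called.

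Genes of iron storage and export were lower in the line, and the main uptake receptor was higher. Ferritin heavy chain (Fth1) had 338 and 342 CPM in RAW264.7 and 4692, 4510 and 5060 CPM in BMDMs, and ferritin light chain (Ftl1) had 2215 and 2343 CPM against 12840, 12110 and 12360 CPM. The exporter Slc40a1 was 171-fold lower, with 5 and 2 counts in the line against 261, 273 and 246 CPM (log2 fold change -7.42, and -8.14 without the first RAW264.7 library). The transferrin receptor Tfrc was higher (578 and 478 against 201, 212 and 223 CPM), and so was Cp, the ferroxidase ceruloplasmin, at 248 and 241 CPM in RAW264.7 and 1.91, 3.88 and 1.92 CPM in BMDMs. Of 11 tested iron genes, 6 were lower (25.2% of all tested genes were) and 2 higher (23.4%).

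**Figure D3:**
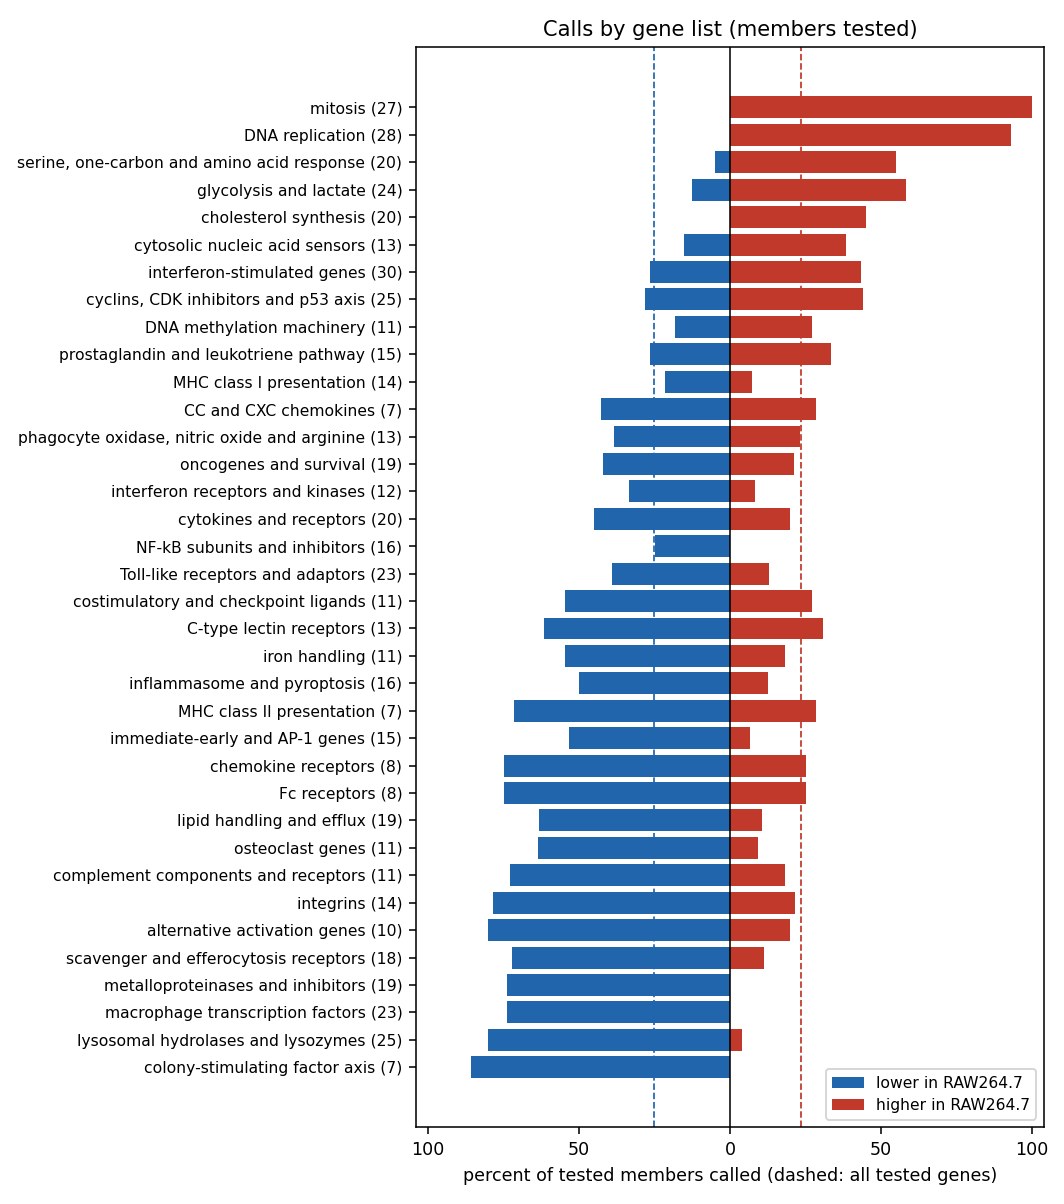
Share of the tested members of each gene list that were called lower in RAW264.7 (blue, to the left) or higher (red, to the right), in percent, for the 36 lists of gene roles with at least 7 tested members (number tested in brackets), with dashed lines at the shares over all tested genes (25.2% lower and 23.4% higher). Mitosis and DNA replication stand at the top with no member lower, and the colony-stimulating factor axis, lysosomal genes and macrophage transcription factors at the bottom.

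A gene was taken as silent in one group when it had no count in any of its libraries and at least 10 counts in every library of the other. By this rule 207 genes were silent in RAW264.7 and 46 in BMDMs, a description with no test. The 207 include 5 of the 13 listed fibroblast and endothelial markers and other matrix genes, such as the collagen genes Col5a2 and Col12a1. The part of other cells in the BMDM libraries in this number was not tested. The BMDM libraries were shallower and more numerous, so the same rule reaches different levels in the 2 groups. Il7r, the interleukin-7 receptor chain better known from lymphocytes, had the highest CPM of the genes silent in the line, 715, 832 and 864 in the BMDM libraries (at least 1290-fold lower). It was followed by Thbs1, the matrix protein thrombospondin-1 (449, 526 and 704 CPM), and after Xist by Slamf7, a self-ligand receptor (320, 301 and 303 CPM), and Prkcb, protein kinase C β (296, 322 and 295 CPM). The next 5 were Mgst1, Zfp704, Pla2g7, Mamdc2 and Pygl, with means of 199 down to 171 CPM. Pygl is the liver form of glycogen phosphorylase and Pla2g7 a hydrolase of platelet-activating factor.

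Genes silent in BMDMs were fewer and of mixed kind. After Rprl3 (1165 and 1209 CPM in RAW264.7), an RNase P RNA-like gene, and Mycn came Spink5, a serine protease inhibitor of skin (161 and 136 CPM), Eno1b (114 and 139 CPM) and the water channel Aqp8 (67.8 and 71.4 CPM). Zbtb32, a repressor known from lymphocytes, had 40.2 and 36.5 CPM, and the transporter Slc6a13 had 29.6 and 21.2 CPM. Some of these counts are uncertain because of near copies. Rprl3 is close in sequence to other RNase P RNA genes. Eno1b is a near-identical copy of Eno1, which had no count in any library, and Gm11127 (34.1 and 30.6 CPM) and Gm4737 (29.2 and 29.3 CPM) carry the names of predicted genes. H2-Q1, H2-Q2 and H2-Q10 belong to an MHC family that differs between strains. Rhox5, a homeobox gene of the germ line, had 16.2 and 11.5 CPM in RAW264.7 and was the 1 tested gene among 25 germline genes.

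The libraries of stimulated cells, which the definition of silence did not use, gave further values for these genes. Of the 207 genes silent in RAW264.7, 166 had no count in either library of RAW264.7 cells given LPS for 4 h, and 2 had at least 10 counts in both, Serpinb2 with 92 and 108 counts and Thbs1 with 14 and 13. Serpinb2 is an inhibitor of plasminogen activators. In the 18 libraries of stimulated BMDMs, 97 of the 207 had at least 10 counts in every library. Of the 46 genes silent in resting BMDMs, 35 had at least 10 counts in both LPS-treated RAW264.7 libraries, and 14 had no count in any of the 18 stimulated BMDM libraries. Ifi44 and Oasl1, both interferon-stimulated genes, had at least 10 counts in every BMDM library of all 4 times after IFN-γ priming and LPS. Trem3 and Car2, a carbonic anhydrase, did so at 12 and 24 h, and Slc6a13 at 24 h. With IL-4 or IL-13, none of the 46 did. Mycn averaged 465 CPM (here without TMM factors) in resting and 299 in LPS-treated RAW264.7 and at most 0.190 in any BMDM group.

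**Figure D4:**
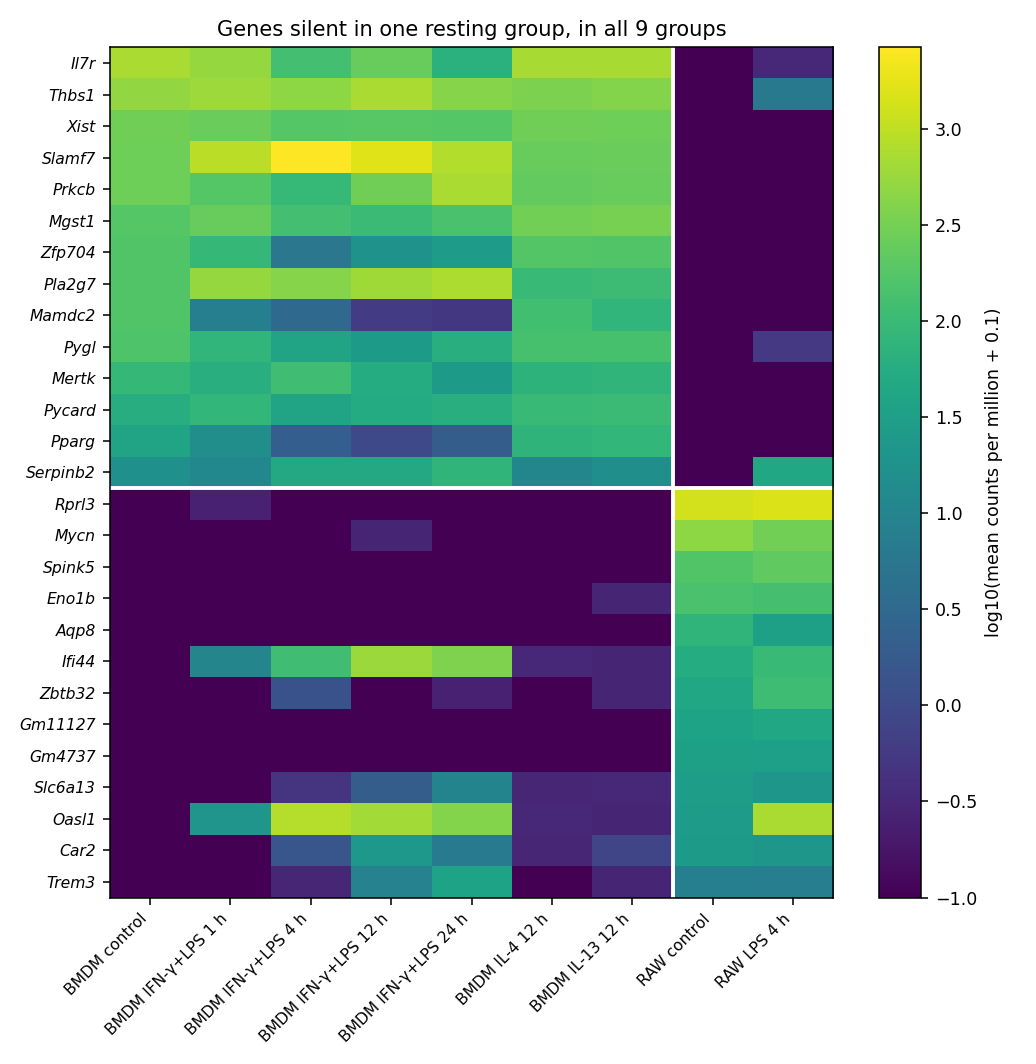
Mean level of 14 genes silent in resting RAW264.7 (above the white line) and 13 silent in resting BMDMs (below it) in all 9 groups of the series, as log10 of CPM plus 0.1 without TMM factors, with 3 libraries in each BMDM group and 2 in each RAW264.7 group. Serpinb2 and Thbs1 appear in RAW264.7 with LPS, Ifi44 and Oasl1 in BMDMs after IFN-γ and LPS, and Mycn, Spink5 and Aqp8 remain near or at 0 in every BMDM group.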

How the data were processed

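The libraries were made from RNA depleted of ribosomal RNA with a strand-specific kit, per the methods of the study, although the labels name polyA RNA as the molecule. Per the labels and the methods of the study, the authors used Trimmomatic 0.33 to trim the reads and STAR 2.5.1 to align them to the mm10 genome of UCSC and deposited raw whole-number counts per gene symbol for each sample, with no normalization. The annotation release is not given in the sources used here. The deposited files hold unstranded, antisense and sense counts for 24411 symbols, and the sense counts were used without Rn45s and without the summary lines for unassigned reads. Reads on no gene feature of the sense strand made up 66.2% to 66.8% of the reads considered in BMDMs and 64.2% to 64.5% in RAW264.7.

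Counts of the 5 resting libraries were analysed with edgeR 4.0.16 in R 4.3.3 (filterByExpr by group, TMM, robust quasi-likelihood fit with 1 mean per group, Benjamini-Hochberg over all tested genes). A call needs an adjusted p of at most 0.01 and an absolute log2 fold change of at least 1. Fold changes are RAW264.7 minus BMDM. A gene with no count in a group is given as a bound against 3 counts over that group, and one with 1 to 3 counts as a ratio with an exact 95% interval, both for counting error only. Adjusted p-values too small for the software to represent are left out. On simulated counts, 16 of 50 genes changed 2-fold and 47 of 50 changed 4-fold were called, with 2 false calls among 9271 genes. The simulated spread was larger than that of the data (common biological coefficient of variation 0.0536), so these shares do not carry over directly. A 2-fold change lies on the limit itself, so genes near the limit on the fold are called in part. Positions are from GENCODE M21 and promoters from RefSeq (GRCm38.p6).

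Named genes were the 10 silent genes of highest CPM, the 10 of largest fold with at least 10 counts in every library and the 10 called genes of highest CPM per direction, members of the gene lists, and Rn45s and sex-linked genes as checks. The members, lists and motifs were chosen with earlier results of these data known. The methods of the study describe the BMDM replicates as independent RNA samples. The labels do not say whether the RAW264.7 libraries came from separate cultures, so p-values measure the spread between these libraries, which may be technical. Results for some listed genes are not reported here. Alternatives were other scalings, filters, strands and cutoffs, DESeq2 1.42.0, larger fits, the replicate number as a block and leaving out each library.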

Additional observations from a re-analysis of the deposited data

How the results depend on the processing

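The numbers of genes higher (2313) and lower (2488) in RAW264.7 stayed within a factor of 1.5 under every alternative except 2. With at least 10 counts in every library, which removes genes near 0 in one group by construction, 1572 genes were lower. With an absolute log2 fold change of at least 2, 979 were higher and 1237 lower. Leaving out 1 library gave 2268 to 2337 higher and 2454 to 2545 lower genes. With DESeq2, 2124 were higher and 2427 lower. Scaling by library size alone gave 2916 higher and 2039 lower genes and moved the median log2 fold change of all genes from -0.04 to 0.23. Under it the medians of the prostaglandin list (-0.17 to 0.11) and the DNA methylation list (-0.20 to 0.08) changed sign. Deviations from the group mean were correlated between groups at -0.0211 for the libraries numbered 1 and -0.0272 for those numbered 2. The deviations of the 2 RAW264.7 libraries mirror each other, so this cannot decide whether the replicate numbers of the labels pair the groups. A fit with a block for the replicate number called 2289 genes higher and 2453 lower, of which 2199 and 2397 were shared with the unblocked fit.

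The numbers of silent genes depend on the count minimum by construction. With at least 5 counts in every expressing library, 352 genes were silent in RAW264.7 and 86 in BMDMs, and with at least 20 counts 125 and 28. With at most 1 count allowed in each silent library, 102 were silent in BMDMs. Leaving out 1 library gave 221 to 250 and 53 to 68. Over the 200 tested genes named in the text and all alternatives, 3482 of 3528 values kept their status as called or not called. The call was lost in 44 and gained in 2. No value with a call in either fit changed sign. Genes that were not called could change sign, among them Adam17 (-0.07, highest 0.20) and Tgfbr2 (-0.03, highest 0.25). Of the lost calls, 30 came with the limit of 2 and 9 with the fold limit as the null hypothesis. With reads of both strands counted, log2 fold changes of some genes with no sense count in one group moved toward 0, among them Mertk (-8.47), Zbtb32 (4.64), Zfp704 (-9.41) and H2-Q1 (5.36). Depth limits the genes with few counts: for a gene with no count in RAW264.7, the bounds allow a level of up to 3 expected counts over its 2 libraries.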

Other observations

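Some further groups were defined by gene symbol, after their values were seen. Of 68 replication-dependent histone genes in the files, 55 were tested and 54 were higher in RAW264.7, with a median log2 fold change of 3.56. Hist2h2bb had 1844 and 1962 CPM in the line and 54.1, 58.9 and 57.5 CPM in BMDMs, a 33.5-fold difference, although histone genes have near-identical copies that may share reads. Small nucleolar RNAs, which guide modification of ribosomal RNA, had 37 of 40 tested genes higher and none lower. They lie within introns of host genes, and reads from the host transcript cannot be told apart from theirs. Of 76 tested ribosomal protein genes, 27 were higher (23.4% of all tested genes were) and 4 lower (25.2%), with a median of 0.87. Of 10 tested histocompatibility-2 class I genes, 4 were higher and 2 lower, the latter a share near that of all genes. Npm1, a nucleolar protein of ribosome assembly, had 2503 and 2106 CPM in RAW264.7 and 263, 287 and 281 CPM in BMDMs. Rmrp, the RNA of the RNase MRP enzyme, had the highest CPM in the line of the genes called higher, at 9318 and 10360 CPM against 5571, 3920 and 4349 CPM, and did not reach the limit on the fold without the second BMDM library (0.99).

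Genes of alternative activation were mostly lower at rest, with 8 of 10 tested lower (25.2% of all tested genes were) and 2 higher (23.4%). The mannose receptor Mrc1 had 3.65 and 2.97 CPM in RAW264.7 and 108, 101 and 92.6 CPM in BMDMs, and the transglutaminase Tgm2 had 8.12 and 8.07 CPM against 366, 330 and 385 CPM. The lectins Clec10a and Mgl2 went the opposite way, with 52 and 60 counts of Clec10a in the line against 1, 1 and 1 in BMDMs, a ratio of 36.3 (95% counting interval 12.1 to 179). For Mgl2 the counts were 24 and 20 against 1, 0 and 0, a ratio of 42.8 (95% counting interval 7.29 to 1730). In the prostaglandin pathway, the phospholipase Pla2g4a (324 against 23.5 CPM) and the cyclooxygenase Ptgs1 (106 against 8.33 CPM) were higher, the thromboxane synthase Tbxas1 (5.40 against 123 CPM) was lower, and Ptgs2 (34.8 against 27.3 CPM) was not called. Of 16 tested NF-κB genes, 12 were not called and 4 were lower, a share near the 25.2% of all tested genes, with Nfkb1 at 80.4 against 67.9 CPM and the inhibitor Tnfaip3 lower at 13.96 against 67.0 CPM, while without the TMM factors 2 were lower and 1 higher. Of 15 tested immediate-early genes, 8 were lower, with Atf3 at 10.96 and 9.34 CPM in the line and 371, 368 and 323 CPM in BMDMs. Among osteoclast genes, Atp6v0d2, a proton pump subunit, had 1 and 1 counts in RAW264.7 and 724, 749 and 836 CPM in BMDMs, and Car2 had none in BMDMs and 29.2 and 17.4 CPM in the line. Il18rap, an IL-18 receptor chain outside the naming rule and chosen after its values were seen, had 130 and 145 counts in RAW264.7 and 0, 0 and 1 in BMDMs.

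Along the genome, the median log2 fold change of the tested genes ran from -0.37 on chromosome 10 (470 genes) to 0.32 on chromosome 3 (453 genes) among the autosomes. Neighbours were sought among the 9439 placed genes with at least 10 counts in every library of a group, so other genes may lie between them. Such neighbours were silent together in RAW264.7 in 12 pairs, among them H2-Ab1 with H2-Aa and Gstm5 with Gstm2. In BMDMs there were 3 pairs, and no run of 3 or more was found in either group. Whether these numbers exceed those of a random order was not tested. A comparison of CG content between promoters of silent genes and of other genes is void, since promoter sequence was found for 72.5% of the genes silent in RAW264.7 and 63.0% of those silent in BMDMs.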
